A study of Hermetia illucens with 24 samples.

Results

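Whole larvae of *Hermetia illucens*, the black soldier fly, were compared after 24 h on chicken feed spiked with aflatoxin B1 (AFB1) and after 24 h on the same kind of feed without it. The 8 libraries were chosen by their labelled diet and time, 4 on AFB1 feed and 4 on control feed, out of 24 libraries in the series. The larvae were 5 days old when the feeding began, and total RNA of a pool of 2 larvae went into each library, which was read in pairs of 150 bp. The series also holds libraries of both diets at 6 and 72 h, with 4 in each of the 6 groups. The labels used here name no strain, sex or AFB1 concentration, and they do not say whether the pools of a group came from separate containers. The p-values therefore measure the spread between pools.

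Aflatoxin B1 is a toxin of *Aspergillus* moulds that grow on grain and oilseeds. In animals it is activated by cytochrome P450 enzymes to an epoxide that binds DNA, and other P450 and conjugating enzymes turn it into less reactive products. Black soldier fly larvae are raised on organic waste and are known to tolerate feed that holds the toxin. The reference table gives no product name for genes known by a LOC number, so these genes are described by identifier, gene class, position relative to each other and expression, without a function. The protein genes of the mitochondrial genome have symbols and known roles.

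In AFB1 larvae, 650 genes were called lower and 204 higher by edgeR's quasi-likelihood test on the 8 libraries. Some other fits gave a more even split, with 1528 lower and 1267 higher by DESeq2, and 369 lower and 271 higher by limma voom. By edgeR without control replicate 4, 1965 were lower and 1648 higher. Leaving out any one of AFB1 replicates 2 to 4 or control replicates 1 to 3 gave a less even split. Without AFB1 replicate 3, for example, 148 were lower and 4 higher. Scaled by total counts, 1808 were lower and 14 higher. The lower genes included 20 that were without a single count in any AFB1 library, and 39 genes in 3 stretches of neighbouring genes, of which 29 had fewer than 10 counts over the 4 AFB1 libraries together. A smaller set of genes was higher, and its median level was higher in AFB1 replicates 3 and 4 than in AFB1 replicates 1 and 2. Most calls were made both with and without LOC119646963 in the scaling, a gene that took most of the counts in 2 AFB1 libraries.

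The libraries differed in composition before any test. Library totals were 9383339, 10745745, 8143905 and 9062501 counts in AFB1 replicates 1 to 4, against 16401203, 15594148, 16042157 and 9053164 in control replicates 1 to 4. LOC119646963 took 27.4%, 42.8%, 74.2% and 81.1% of the counts in AFB1 replicates 1 to 4, against 7.12%, 7.43%, 7.92% and 36.8% in control replicates 1 to 4. The groups overlapped, because control replicate 4 lay above AFB1 replicate 1. The mean share was 56.4% ± 25.5 in AFB1 libraries and 14.8% ± 14.7 in control libraries (SD, n = 4 each), a difference of 41.6 percentage points (two-sided exact permutation p = 0.0571). Outside this gene, 6811421, 6150725, 2097793 and 1711314 counts remained in the AFB1 libraries, against 15233182, 14435767, 14772282 and 5719408 in the control libraries. A count of 0 is therefore less informative in AFB1 replicates 3 and 4, where 3 counts correspond to 1.95 CPM, than in AFB1 replicates 1 and 2, where they correspond to 0.465 and 0.474 CPM. CPM, the unit of all levels given here, stands for counts per 1000000 counts outside LOC119646963, scaled with factors from the trimmed mean of M values (TMM).

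**Figure D1:**
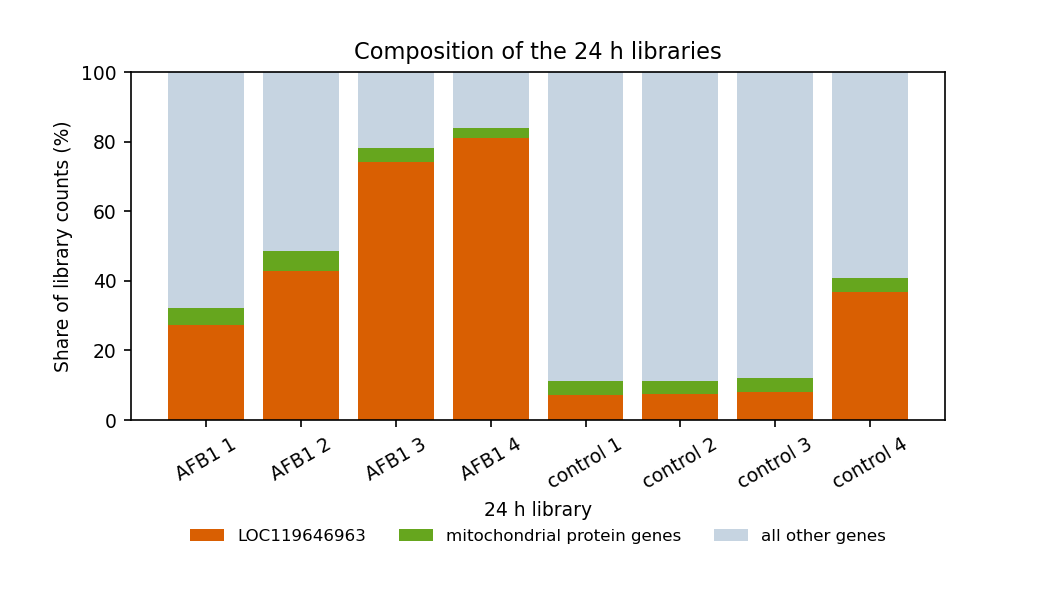
Composition of the 8 libraries at 24 h, with AFB1 libraries left of control libraries. LOC119646963 took between 27.4% and 81.1% of the counts in AFB1 libraries and between 7.12% and 36.8% in control libraries, where replicate 4 stands apart from the other 3.

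Control replicate 4 stood apart from the other controls in more than this share. On the first principal component of log2 expression, which held 61.5% of the variance, the AFB1 libraries lay at -22.7, -36.8, -117.5 and -111.6, and control replicates 1 to 4 at 85.0, 85.7, 104.4 and 13.4. Its log2 expression correlated more closely with AFB1 replicates 1 and 2 (r = 0.878 and 0.862 across genes) than with the other controls (r between 0.761 and 0.826). The counts of genes called with all genes in the scaling are therefore also given without it.

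LOC119646963 itself was not called in the fit of the 8 libraries. Its log2 fold change was 3.495 (SE 1.13), with an adjusted p of 0.0648 by edgeR's quasi-likelihood test with Benjamini-Hochberg adjustment. Without control replicate 4 the log2 fold change was 5.22 and the gene was called (adjusted p = 0.00394 by edgeR).

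The count of genes past the test was uneven between directions. With all genes in the scaling, edgeR's quasi-likelihood test called 854 of 8968 genes at an adjusted p under 0.05 (9.52%), of which 204 were higher (2.27%) and 650 lower (7.25%) in AFB1 larvae. With LOC119646963 removed before scaling, 809 of 9019 genes were called (8.97%), 209 higher (2.32%) and 600 lower (6.65%). Over the 8883 genes tested in both fits, no gene called in both changed direction, and the log2 fold change of a gene moved by at most 0.0465. Genes called in the same direction in both fits numbered 799, of which 202 were higher and 597 lower, and these are the genes described here. TMM already gives little weight to a single abundant gene, so calls shared by both fits say that the count of LOC119646963 itself did not set them, and not that they are free of other differences in composition. A further 55 genes were called only with LOC119646963 in the scaling, 2 higher and 53 lower. Of these, 12 lower genes were not tested in the other fit, and the other 43 had an adjusted p of at most 0.0551 there by edgeR. Only with LOC119646963 removed, 10 genes were called, 7 higher and 3 lower, of which 8 were not tested in the other fit. The median log2 fold change over all tested genes was -0.13 with LOC119646963 and -0.11 without it.

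These counts rested on the scaling and on single libraries. When libraries were scaled by their total counts without TMM, the median of all genes was -1.32 on the log2 scale, and 14 genes were called higher and 1808 lower. Leaving out AFB1 replicate 1 gave 234 higher and 451 lower genes, while leaving out AFB1 replicates 2, 3 or 4 gave 30, 4 or 5 higher and 188, 148 or 186 lower genes. Leaving out control replicates 1, 2 or 3 gave 10, 5 or 5 higher and 388, 275 or 227 lower genes. Without control replicate 4, the count was 1648 higher and 1965 lower. One higher gene and 136 lower genes were called in every one of the 8 fits that left out 1 library. Without both AFB1 replicates 3 and 4, the libraries with the largest share of LOC119646963, 1 gene was called higher and 47 lower, and without these and control replicate 4, 1985 were higher and 2288 lower.

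**Figure D2:**
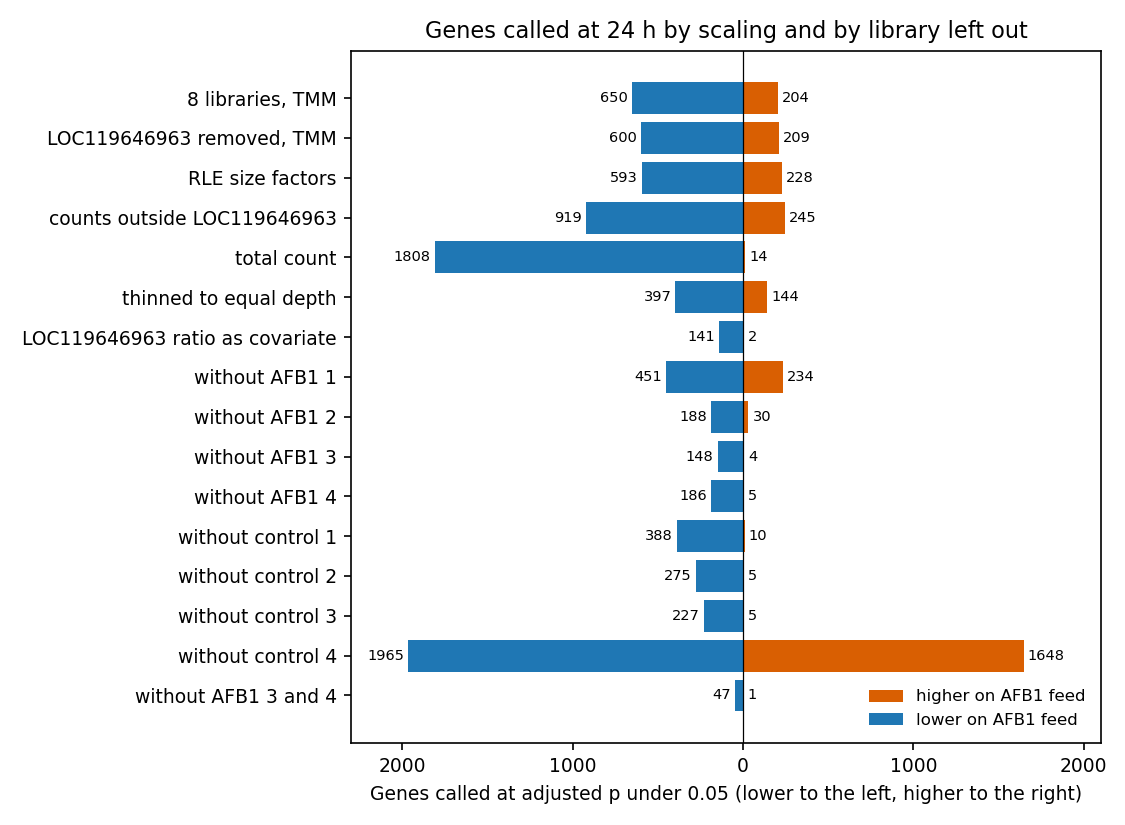
Genes called at an adjusted p under 0.05 by edgeR, by scaling, thinning, covariate and library left out, with lower genes to the left and higher genes to the right. With all genes in the TMM scaling, 204 were higher and 650 lower in AFB1 larvae. Without control replicate 4, 1648 were higher and 1965 lower.

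Lower genes spanned a wider range of change than higher ones. The 597 lower genes had a median log2 fold change of -2.78, with quartiles of -4.49 and -2.17, beside -0.11 over all tested genes. Of these, 168 were at least 16-fold lower, and 401 had AFB1 libraries all below the control libraries, against 804 of 8968 such genes (8.97%) over the whole table. In 146 of them the mean level in AFB1 larvae was below 1 CPM. Together the 597 genes held 1.33%, 1.03%, 0.51% and 0.652% of the counts outside LOC119646963 in AFB1 replicates 1 to 4, against 11.2%, 11.4%, 15.4% and 6.72% in control replicates 1 to 4. All 4 control libraries were above all 4 AFB1 libraries in this share. The genes were called lower on these 8 libraries, so this separation and the count of 401 are a description. In larvae taken whole, fewer cells of a type and less RNA per cell cannot be told apart.

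For 20 of the lower genes, no AFB1 library held a count. These genes together held 319.6, 1909.5, 3225.5 and 2583.7 CPM in control replicates 1 to 4. With a floor of 3 counts over the 4 AFB1 libraries, they were at least 13-fold to at least 1451-fold lower, with a median bound of 363-fold. LOC119648267 had 10.8, 166.3, 348.1 and 482.3 CPM in control libraries, and was at least 1060-fold lower in AFB1 larvae (adjusted p = 0.00377 by edgeR). LOC119649056 had 85.7, 334.7, 326.0 and 228.3 CPM in control libraries, and was at least 1290-fold lower (adjusted p = 0.000314 by edgeR).

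A small number of counts was left of 2 further genes of lowest p. LOC119652765 had 0.155, 0.158, 0 and 0 CPM in AFB1 replicates 1 to 4, against 411.4, 311.3, 384.3 and 292.5 CPM in control replicates 1 to 4. This rested on 2 counts in AFB1 libraries and 21534 in control libraries, a control-over-AFB1 ratio of 2890 (95% interval 800 to 23861, counting error only), with an adjusted p of 1.26e-05 by edgeR. LOC119648303 had 0.155, 0.316, 0 and 0 CPM in AFB1 replicates 1 to 4, against 131.7, 427.3, 594.5 and 327.3 CPM in control replicates 1 to 4. Its 3 AFB1 counts gave a ratio of 1998 (684 to 9688), with an adjusted p of 0.000106 by edgeR. No AFB1 library of either gene came near a control library, and both genes kept their call in every alternative run.

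Among lower genes whose groups did not overlap, LOC119650137 and LOC119648172 had the highest mean level. LOC119650137 had 85.8, 59.3, 6.49 and 1.95 CPM in AFB1 replicates 1 to 4, against 2555.3, 3554.2, 6049.5 and 12523.5 CPM in control replicates 1 to 4. The groups were far apart, and control replicate 4 was here the highest control. The log2 fold change was -7.34 (SE 1.20, adjusted p = 0.00486 by edgeR), and it kept its call in every alternative run. LOC119648172 had 1363.3, 853.1, 686.0 and 392.6 CPM in AFB1 replicates 1 to 4, against 3063.4, 4714.5, 3199.4 and 1678.1 CPM in control replicates 1 to 4. Its groups did not overlap, but the gap was narrow, between 1363.3 and 1678.1 CPM. The log2 fold change was -1.98 (SE 0.54, adjusted p = 0.0433 by edgeR). The call was lost when any one of AFB1 replicates 2 to 4 or control replicates 1 to 3 was left out (adjusted p between 0.0887 and 0.1297 by edgeR). With the ratio of LOC119646963 to all other counts as a covariate, the log2 fold change of LOC119648172 was -0.62, and it was not called.

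Part of the lower genes lay next to each other along the chromosomes. Of the 9007 tested genes with a place in the reference, 12.1% had a lower gene as the nearest tested gene on at least 1 side, and among the 597 lower genes this share was 31.0% (185 genes). A higher gene on at least 1 side was present for 4.31% of the placed genes and for 10.5% of the 200 placed higher genes (21 genes). Lower genes formed 16 runs of 3 or more, holding 93 genes, and higher genes formed 4 such runs with 13 genes, the longest of 4. Neighbouring genes that are near-identical copies can share reads, and the sources used here do not give how such reads were counted.

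The 3 longest runs of lower genes, chosen after their values were seen, held 17, 11 and 11 protein-coding genes. Being called lower is part of how a run was formed, so the values of these genes are a description. All 39 genes had AFB1 libraries entirely below the control libraries, beside 8.97% of all tested genes. Together they had 897 counts in the AFB1 libraries and 583674 in the control libraries, with control means between 26.8 and 886 CPM, and 31 of the 39 had an AFB1 mean below 1 CPM. Their median log2 fold change was -9.66, and -9.45 with the 6 genes without AFB1 counts set at their bound, beside -0.13 over all tested genes. Their adjusted p was at most 0.0182 by edgeR. The smallest change was that of LOC119651668, with 3.26, 3.64, 1.30 and 4.54 CPM in AFB1 replicates 1 to 4, against 5.82, 20.8, 40.4 and 50.8 CPM in control replicates 1 to 4.

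The first run held 17 genes, from LOC119648868 to LOC119648321. Their summed levels were 52.7, 35.4, 14.3 and 1.95 CPM in AFB1 replicates 1 to 4, against 2816.6, 6584.9, 9049.4 and 4250.6 CPM in control replicates 1 to 4. Every control library was far above every AFB1 library. Within it, the median log2 fold change was -10.94, and -10.41 with the genes without AFB1 counts set at their bound. The smallest change was -3.98 for LOC119648321. The most negative estimate, -14.16, was that of LOC119649056, which had no AFB1 count, so only its bound of at least 1290-fold lower holds. LOC119650164, another member, had 0.465, 0.316, 0 and 0 CPM in AFB1 replicates 1 to 4, against 231.3, 741.9, 1071.5 and 603.3 CPM in control replicates 1 to 4.

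The second run held 11 genes, from LOC119651661 to LOC119652317. Their summed levels were 14.9, 14.2, 5.19 and 9.08 CPM in AFB1 replicates 1 to 4, against 353.5, 638.2, 993.7 and 804.9 CPM in control replicates 1 to 4. The changes here were smaller, with a median log2 fold change of -6.60 and the smallest at -3.19. The most negative estimate, -10.98, was that of LOC119652315, which had no AFB1 count, so only its bound of at least 153-fold lower holds. The third run held 11 genes, from LOC119652753 to LOC119652765. Their summed levels were 7.76, 7.59, 0 and 1.30 CPM in AFB1 replicates 1 to 4, against 831.4, 3410.8, 5242.5 and 4150.4 CPM in control replicates 1 to 4. LOC119652766 of this run had 2.02, 2.06, 0 and 0 CPM in AFB1 replicates 1 to 4, against 180.6, 1255.7, 1639.3 and 468.5 CPM in control replicates 1 to 4. In 29 of the 39 genes, control replicate 1 was the lowest control.

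**Figure D3:**
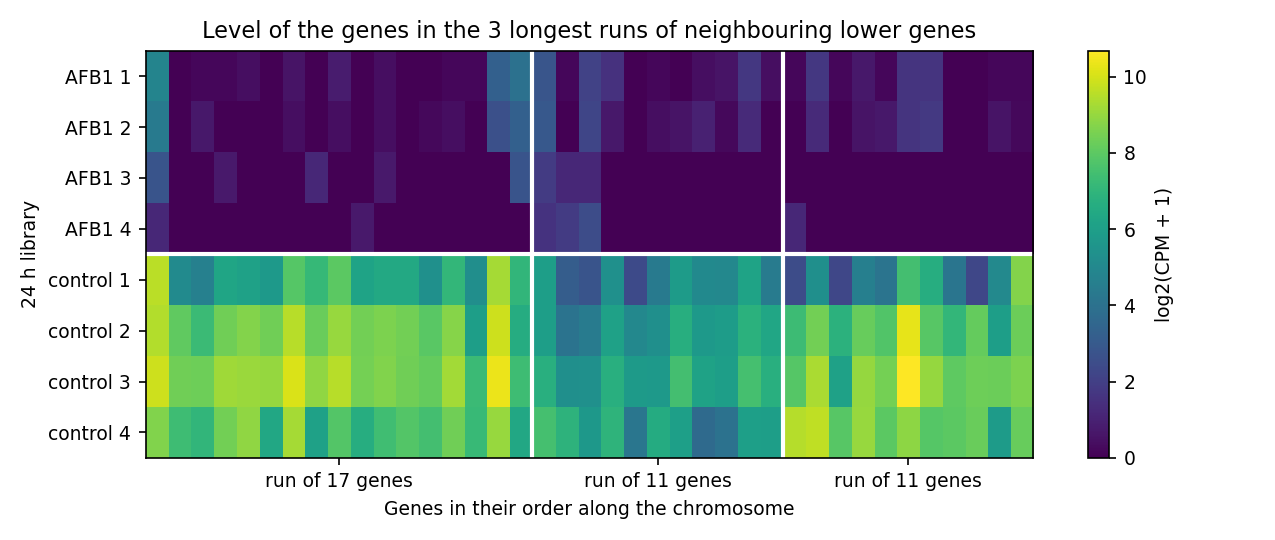
Heat map of the level of each gene of the 3 runs in every library, in CPM on a log scale, with AFB1 libraries above control libraries. In all 39 genes every AFB1 library lies below every control library.

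The fit of all 24 libraries gave the diet effect on the run genes at the other times. Its spread is shared with the control libraries of 72 h, which are nearly identical, so its p-values can be too small. At 72 h, 38 of the 39 genes were called lower, beside 602 of 10165 genes (5.92%), and their median log2 fold change was -10.11. At 6 h, 10 of the 39 were called lower, beside 787 of 10165 genes (7.74%), with a median of -2.56, and 29 did not pass. By run, these were 1 of 17, 3 of 11 and 6 of 11 genes. The summed levels of the first run at 6 h were 108.4, 3525.6, 25.9 and 131.6 CPM in AFB1 replicates 1 to 4, against 255.1, 2437.2, 6080.3 and 1257.7 CPM in control replicates 1 to 4. AFB1 replicate 2 lay within the control range at 6 h in this run, and also in the second run, at 291.4 CPM, and in the third, at 1002.9 CPM. The effect at 24 h differed from that at 6 h in 2 of the 39 genes, beside 131 of 10165 genes (1.29%), and from that at 72 h in 0 of them, beside 240 genes (2.36%). At an unadjusted p under 0.05 by edgeR those counts were 33 and 5 of the 39, beside 24.4% and 25.4% of all genes. The run genes were chosen as lower on the same 24 h libraries, which favours a more negative effect at 24 h. The counts of genes that differ between times are therefore a description.

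**Figure D4:**
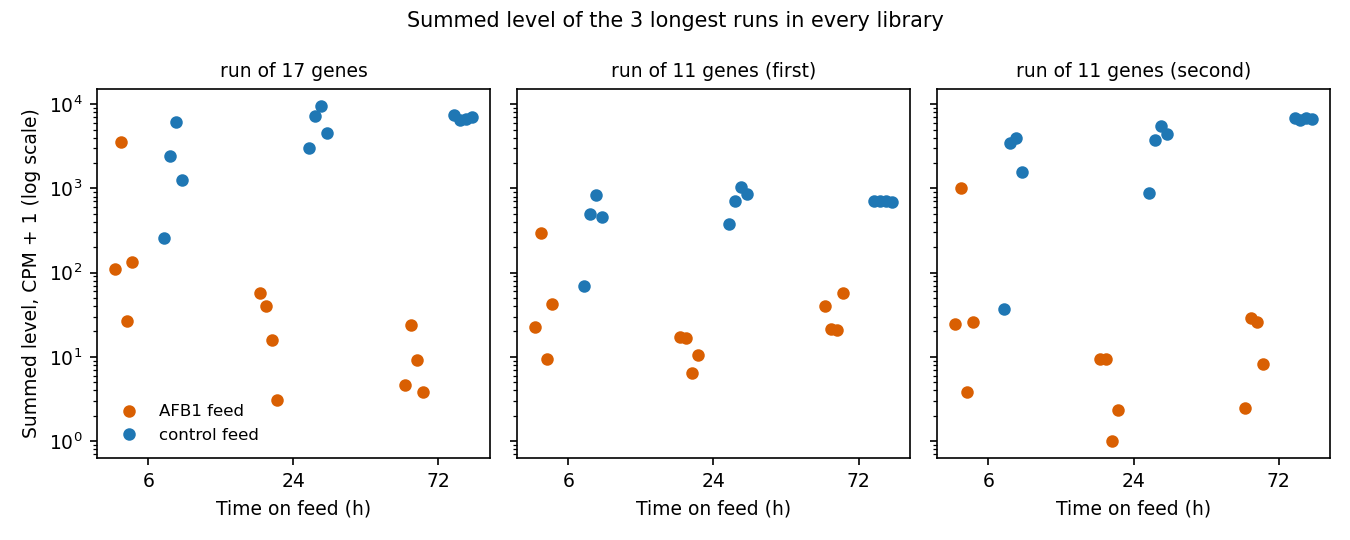
Summed CPM of the genes in each of the 3 runs, per library at 6, 24 and 72 h, with AFB1 libraries left of control libraries at each time. At 6 h AFB1 replicate 2 reached 3525.6 CPM in the first run, and at 24 h the AFB1 libraries of that run lay at 2.05 to 57.0 CPM in this fit of 24 libraries.

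Higher genes had a smaller median change than lower genes, and their levels differed between AFB1 libraries. The 202 genes had a median log2 fold change of 2.40, with quartiles of 1.99 and 2.87, and 11 were at least 16-fold higher. In 153 of them all AFB1 libraries lay above all control libraries, against 539 of 8968 genes (6.01%) over the whole table. Together the higher genes took 2.55%, 3.33%, 10.4% and 10.5% of counts outside LOC119646963 in AFB1 replicates 1 to 4, against 0.793%, 0.896%, 0.741% and 1.86% in control replicates 1 to 4. The higher shares belonged to the 2 libraries in which LOC119646963 was also most abundant. The higher genes were called on these 8 libraries, so their separation by diet is a description. Their median log2 difference from the mean of control replicates 1 to 3 was 1.59, 1.89, 3.16 and 3.10 in AFB1 replicates 1 to 4, and 0.014, 0.104, -0.084 and 1.18 in control replicates 1 to 4. With the ratio of LOC119646963 to all other counts as a covariate, 2 genes were called higher and 141 lower, and 0 of the 2 and 131 of the 141 were among those called without it. The ratio and the diet overlap in this design, and their parts in the calls cannot be told apart.

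**Figure D5:**
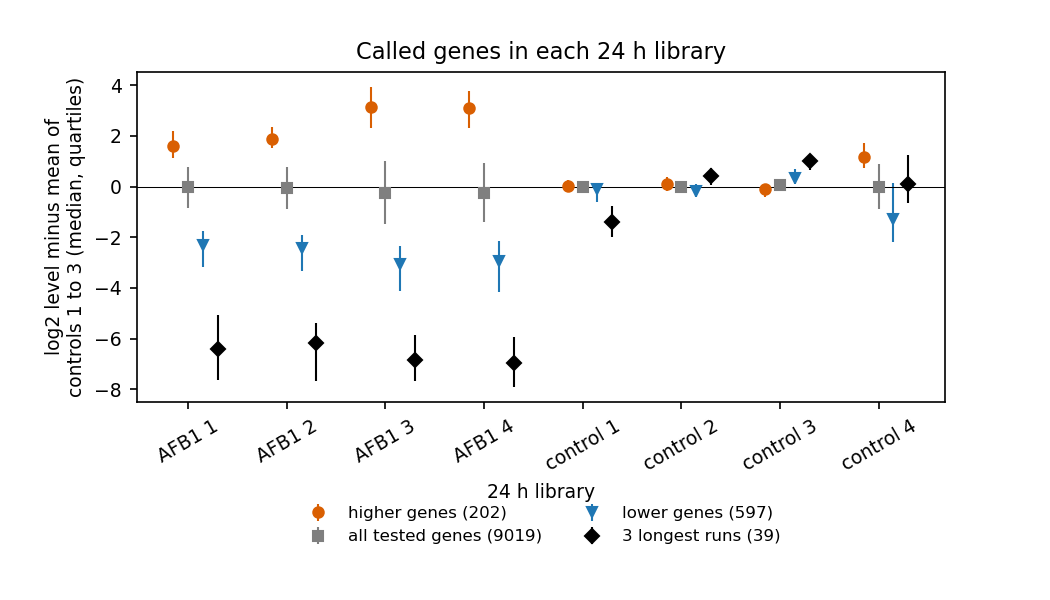
Median log2 difference from the mean of control replicates 1 to 3 over higher genes, lower genes and genes of the 3 runs, for each library with AFB1 left of control. Higher genes reach 3.16 and 3.10 in AFB1 replicates 3 and 4, and control replicate 4 reaches 1.18 for higher genes and -1.28 for lower genes. The genes were chosen on these 8 libraries.

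Among higher genes with a mean of at least 8 CPM and groups that did not overlap, LOC119658527 and LOC119647829 had the largest changes. LOC119658527 had 7.13, 4.43, 35.1 and 123.3 CPM in AFB1 replicates 1 to 4, against 0.267, 0.238, 0.0537 and 2.44 CPM in control replicates 1 to 4. The log2 fold change was 6.24 (SE 1.34, adjusted p = 0.0206 by edgeR). LOC119647829 had 239.2, 264.1, 4637.8 and 2562.3 CPM in AFB1 replicates 1 to 4, against 90.2, 45.3, 59.9 and 111.2 CPM in control replicates 1 to 4. Its log2 fold change was 4.65 (SE 0.98, adjusted p = 0.0198 by edgeR). In both genes AFB1 replicates 3 and 4 were highest, and both calls were lost without AFB1 replicate 3, without AFB1 replicate 4, and without control replicate 2 or 3 (adjusted p between 0.0563 and 0.0719 by edgeR).

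LOC119646761 was the one higher gene that was called in every fit leaving out 1 library. It had 11.9, 14.4, 29.9 and 36.3 CPM in AFB1 replicates 1 to 4, against 3.10, 3.75, 2.42 and 5.08 CPM in control replicates 1 to 4. The log2 fold change was 2.67 (SE 0.50, adjusted p = 0.0106 by edgeR), and scaling by total count lowered it to 1.11, which was not called. LOC119657341 had 26.1, 29.7, 31.2 and 20.8 CPM in AFB1 replicates 1 to 4, against 5.87, 3.45, 1.07 and 7.32 CPM in control replicates 1 to 4. The groups did not overlap, and the AFB1 libraries were close to each other. The log2 fold change was 2.61 (SE 0.54, adjusted p = 0.0190 by edgeR), and the call was lost without AFB1 replicate 2 or 3 or control replicate 2 (adjusted p between 0.0511 and 0.0695 by edgeR).

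Among higher genes whose groups did not overlap, ND5 and LOC119658509 had the highest mean level. ND5, a subunit of NADH dehydrogenase encoded in the mitochondrial genome, had 4076.6, 4794.3, 48903.4 and 40894.7 CPM in AFB1 replicates 1 to 4, against 975.7, 1011.0, 1041.5 and 3765.5 CPM in control replicates 1 to 4. Its log2 fold change was 3.86 (SE 0.95, adjusted p = 0.0344 by edgeR). LOC119658509 had 4447.8, 5119.7, 20396.4 and 17439.0 CPM in AFB1 replicates 1 to 4, against 1014.4, 1118.0, 1102.4 and 4343.5 CPM in control replicates 1 to 4. Its log2 fold change was 2.64 (SE 0.74, adjusted p = 0.0461 by edgeR). In both genes AFB1 replicates 3 and 4 were far above AFB1 replicates 1 and 2, and control replicate 4 was close to AFB1 replicate 1. The log2 fold change of ND5 fell to 0.19, and that of LOC119658509 to 0.34, with the covariate, and neither was called then. ND5 lost its call without AFB1 replicate 3 or 4 or control replicate 1, 2 or 3, and LOC119658509 without any one of these or AFB1 replicate 2 (adjusted p between 0.0668 and 0.1334 by edgeR over both genes).

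The mitochondrial genome encodes subunits of the respiratory chain and of ATP synthase, and the share of its protein genes depended on whether LOC119646963 was counted. Outside LOC119646963 they held 6.74%, 9.94%, 15.7% and 14.7% of counts in AFB1 replicates 1 to 4, against 4.26%, 3.95%, 4.51% and 6.42% in control replicates 1 to 4. The groups did not overlap, although AFB1 replicate 1 and control replicate 4 were close. The mean was 11.8% ± 4.19 in AFB1 libraries and 4.79% ± 1.11 in control libraries (SD, n = 4 each), a difference of 6.99 percentage points (two-sided exact permutation p = 0.0286, the smallest this design allows). Of all counts, with LOC119646963 included, they held 4.90%, 5.69%, 4.03% and 2.78% in AFB1 replicates 1 to 4, against 3.96%, 3.66%, 4.15% and 4.06% in control replicates 1 to 4. These groups overlapped, AFB1 replicate 4 was the lowest of all 8 libraries, and the difference of 0.395 percentage points was within the spread (two-sided exact permutation p = 0.6).

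Gene by gene, 2 of 12 tested mitochondrial protein genes, ND5 and ND6, were called higher, beside 2.27% of all genes tested. No gene of the list was called lower, 7 had an unadjusted p under 0.05 by edgeR, beside 33.4% of all genes, and the median log2 fold change was 2.01, beside -0.13 over all genes tested. ND6, another subunit of NADH dehydrogenase, had 2.33, 10.3, 15.6 and 13.0 CPM in AFB1 replicates 1 to 4, against 2.19, 1.19, 3.17 and 2.03 CPM in control replicates 1 to 4. Its groups overlapped, and the log2 fold change was 2.19 (SE 0.59, adjusted p = 0.0413 by edgeR). The call was lost in 14 alternatives, among them leaving out any one of AFB1 replicates 2 to 4 or control replicates 1 to 3 (adjusted p between 0.0781 and 0.124 by edgeR). The other members were not called, among them CYTB of the cytochrome bc1 complex, ND4, and COX1 of cytochrome c oxidase. Their log2 fold changes were 2.93, 2.57 and 2.29 (adjusted p between 0.0636 and 0.0996 by edgeR). In each of these, control replicate 4 lay above AFB1 replicate 1, so the groups overlapped. ATP6 had 2.16, COX3 1.87, ND4L 1.05, ATP8 1.01, ND1 1.00 and ND3 0.56 (adjusted p between 0.0768 and 0.425 by edgeR). COX2, another subunit of cytochrome c oxidase, had 3874.2, 5430.7, 7363.0 and 7634.3 CPM in AFB1 replicates 1 to 4, against 6089.9, 6058.9, 5876.1 and 4945.8 CPM in control replicates 1 to 4. Its log2 fold change was 0.07, which was -0.28 and -1.43 when libraries were scaled without TMM by counts outside LOC119646963 and by total counts. Scaled by total counts, ND1, ND3, ND4L, COX2 and ATP8 all had a negative log2 fold change, so the direction for these members depends on the scaling.

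In the class of long non-coding RNA (lncRNA) genes, more were called higher than lower in the fit of all 8 libraries with all genes in the TMM scaling. Of 108 tested lncRNA genes, 12 were called higher (11.1%) and 3 lower (2.78%), with a median log2 fold change of 1.24, and 54 had an unadjusted p under 0.05 by edgeR, beside 33.4% of all genes. Of 8841 protein-coding genes of the nuclear genome, 190 were called higher (2.15%) and 647 lower (7.32%). The sources used here give no strand setting for the counting, so reads of an lncRNA and of a gene that overlaps it on the other strand cannot be told apart. This balance rested on single libraries. Without AFB1 replicate 1, 14 were called higher and 3 lower, and without control replicate 4, 62 higher and 10 lower. Without AFB1 replicate 2, 1 was called higher and 2 lower, and without AFB1 replicate 3, 0 higher and 1 lower. Without AFB1 replicate 4 or any one of control replicates 1 to 3, 0 were called higher and 2 lower. With the LOC119646963 ratio as a covariate, 0 were called higher and 1 lower, and scaled by total counts, 1 higher and 8 lower.

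The effect of the diet on the named genes was also measured at 6 and 72 h. In the fit of all 24 libraries, log2 fold changes of LOC119650137 were -1.60 at 6 h, -7.28 at 24 h and -13.08 at 72 h, with adjusted p of 0.351, 0.00513 and 8.6e-05 by edgeR. LOC119647829 had -3.67, 4.68 and 1.60, and LOC119648172 had -0.49, -1.93 and -0.35, at 6, 24 and 72 h. ND5 had 2.10, 3.89 and -0.14. ND5 was the one named gene whose effect at 24 h differed from that at another time. The difference from 72 h was 4.03 on the log2 scale (SE 1.03, adjusted p = 0.0433 by edgeR). This p is close to the threshold, and the nearly identical control libraries of 72 h can make the spread of this fit too small. No named gene differed in this test between 24 and 6 h. The 20 genes without AFB1 counts at 24 h had a median of the mean level of 1.88 CPM in AFB1 larvae and 61.6 CPM in control larvae at 6 h, and 0.329 CPM in AFB1 larvae and 184.0 CPM in control larvae at 72 h. At 72 h, 2 of them had 0 counts in all 4 AFB1 libraries.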

How the data were processed

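The values are raw counts of reads per gene, in a table that the authors deposited. The submitters' processing notes name STAR. The sources used here name no counting tool, build, strand setting or version. The authors tested with DESeq2, per the series' design text. Per the labels' protocols, 5 pools were collected per diet and time, and 4 libraries of each were used. Of 15197 lines, 1 was empty and 9 named no gene; these 9, with 0.0206% to 0.0431% of a library's counts, entered neither library sizes nor tests. All 15187 named rows were found in the RefSeq gene table of assembly iHerIll2.2.curated.20191125, used only for gene class and order.

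Counts of the 8 libraries went into edgeR 4.0.16, run in R 4.3.3: filterByExpr, TMM, and a robust quasi-likelihood test with 1 coefficient per group (6 residual degrees of freedom, biological coefficient of variation 0.531). The test was two-sided, with Benjamini-Hochberg adjustment over all genes tested and a threshold of 0.05. Only these libraries entered the fit, because the control libraries of 72 h are nearly identical. The fit was repeated with LOC119646963 removed before filtering and scaling. Fold changes and p-values are from the fit with all genes unless stated. The medians, quartiles and 16-fold counts of the 597 lower and 202 higher genes are from the fit with LOC119646963 removed. The standard error (SE) is the log2 fold change divided by the square root of F. Where a group had 0 counts, a floor of 3 counts over the group bounds the fold, and with 1 to 3 counts an exact interval at 95% is given. Floors and intervals cover counting error only. Shares were compared by exact permutation over all divisions of the 8 libraries.

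Named were LOC119646963, the mitochondrial protein genes, and, per direction, the 2 genes of largest change, of lowest p and of highest mean. These were taken from genes called in both fits, with a mean of at least 8 CPM and groups that did not overlap. Lists that rest on product names or protein sequences could not be formed. The members, lists and tests were chosen with earlier results of these data known. Alternatives covered the scaling, the filter, the libraries in the fit, thinning to the same number of counts outside LOC119646963, a covariate, limma 3.58.1 and DESeq2 1.42.0. The test was also run on simulated counts with known changes, and the outcome is not given here.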

Additional observations from a re-analysis of the deposited data

Results flagged for a closer look

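Of 54 groups of 4 values looked at over both diets, 11 held a value far from the other 3, by its gap relative to the range. All 11 were control replicate 4, and the AFB1 groups among the 54 could not hold this library. Chance flags about 1 in 20 such groups, and the values share this library, so they are not independent. LOC119646963 took 36.8% of its counts, against 7.12% to 7.92% in the other controls. LOC119658527 had 2.44 CPM in it, against 0.0537 to 0.267 in the others, and LOC119658509 had 4343.5 CPM, against 1014.4 to 1118.0.

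Mitochondrial protein genes were among these values. In control replicate 4, ND5 had 3765.5 CPM, against 975.7 to 1041.5 in the other controls, ND1 had 16289.7 CPM, against 5795.0 to 6528.7, and ND4 had 13852.2 CPM, against 1961.0 to 2211.1. CYTB had 2952.8 CPM, against 117.1 to 168.0, COX1 had 3054.2 CPM, against 598.5 to 765.0, and COX3 had 6695.5 CPM, against 1456.8 to 2286.5. ATP6 had 80.9 CPM, against 2.50 to 6.77, and ATP8, a subunit of ATP synthase like ATP6, had 12407.2 CPM, against 8102.9 to 8664.8. Without this library, 10 mitochondrial protein genes were called higher in AFB1 larvae instead of 2.

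The effect of AFB1 feed on ND5 differed between times, by 4.03 on the log2 scale between 24 and 72 h (adjusted p = 0.0433 by edgeR in the fit of 24 libraries). This p is close to the threshold, and the nearly identical control libraries of 72 h can make the spread of that fit too small. At 24 h, ND5 had 4076.6, 4794.3, 48903.4 and 40894.7 CPM in AFB1 replicates 1 to 4.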

How the results depend on the processing

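The 854 called genes (204 higher, 650 lower) numbered 1822 (14 higher, 1808 lower) when libraries were scaled by total counts, where 0 mitochondrial protein genes were called in place of 2. Wider pools of libraries called more genes: 3181 (1238 higher, 1943 lower, 8 mitochondrial) with 24 libraries, 3171 (1180, 1991 and 8) with 24 libraries and LOC119646963 removed, and 2194 (874, 1320 and 7) with control 72 h left out. DESeq2 called 2795 (1267, 1528 and 8), limma voom 640 (271, 369 and 3), and limma voom with quality weights 5170 (2350, 2820 and 11). Thinning all libraries to the same number of counts outside LOC119646963 left 541 calls, 397 of them lower and 1 mitochondrial, and the LOC119646963 ratio as a covariate left 143 (2, 141 and 0). Without AFB1 replicates 3 and 4, 48 were called (1, 47 and 0), and without these and control replicate 4, 4273 (1985, 2288 and 10). Leaving out 1 library gave 152 to 3613 calls, 4 to 1648 higher, 148 to 1965 lower and 0 to 10 mitochondrial. The difference in mitochondrial share was 5.69 to 8.66 percentage points. Without any one control its exact permutation p was 0.0571, with 4 against 3 libraries, where a division other than that by diet differed more. Over all counts, an alternative chosen after seeing the data, the difference was 0.395 (exact permutation p = 0.6). The cause of these shifts was not tested.

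The genes of the 3 runs were called lower in 35 to 39 of 39 cases in every alternative but the one without AFB1 replicates 3 and 4, where 23 were. Scaled by total counts, ND1 was -0.16, ND3 -0.41, ND4L -0.28, COX2 -1.43 and ATP8 -0.35 on the log2 scale. COX2 was also -0.28 scaled by counts outside LOC119646963, -0.22 with voom quality weights, -0.36 with the covariate, -0.24 without AFB1 replicates 3 and 4, and -0.31 without these and control replicate 4. With 1 library left out COX2 ranged from -0.0523 to 0.242, and was negative without AFB1 replicate 3 or 4.

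The labels do not say whether replicate numbers pair the samples. Same-numbered libraries of the 2 diets correlated at 0.07, 0.19, -0.22 and -0.07 in their deviations from the group means. So few libraries cannot decide whether they are paired. With a replicate block, 979 genes were called, 378 higher and 601 lower, with 5 mitochondrial genes. Depth limits most the AFB1 replicates 3 and 4.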

Other observations

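Past the 3 longest runs, 2 further runs of 6 neighbouring lower genes were present, chosen after their values were seen. In the run from LOC119648574 to LOC119648270, the change was uneven, and log2 fold changes ran from -8.54 for LOC119648995 to -2.81 for LOC119649024. LOC119648270 had 38.5, 24.8, 7.14 and 4.54 CPM in AFB1 replicates 1 to 4, against 305.5, 207.9, 243.7 and 98.99 CPM in control replicates 1 to 4. In the run from LOC119657530 to LOC119657545, LOC119658077 was without counts in AFB1 larvae and at least 59-fold lower. LOC119657530 had 1.71, 0.158, 0 and 0 CPM in AFB1 replicates 1 to 4, against 104.9, 131.9, 145.9 and 109.4 CPM in control replicates 1 to 4, so its control libraries were close to each other. Genes without AFB1 counts also lay outside runs of the longest kind. LOC119654479 had 1.28, 21.2, 58.0 and 334.0 CPM in control replicates 1 to 4, and was at least 277-fold lower in AFB1 larvae.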
